A study of Homo sapiens with 6 samples.

Results

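A set of 10 genes that are read as signs of epithelial or mesenchymal state, out of 58735 in the deposited table, was followed across 6 RNA-seq libraries of cells differentiated towards pancreatic progenitors. They were chosen by name: the epithelial surface genes CDH1 and EPCAM, the mesenchymal genes CDH2, VIM and FN1, and the transcription factor genes SNAI1, SNAI2, TWIST1, ZEB1 and ZEB2, which are known to drive the change between these states. Each name matched exactly 1 row. Of these 10 genes, 6 had a mean of at least 1 FPKM and were tested, and SNAI2, TWIST1, ZEB1 and ZEB2 lay below that minimum and are given as values.

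E-cadherin (CDH1) and N-cadherin (CDH2) are adhesion proteins that join neighbouring cells and bind catenins inside the cell. In an epithelial-mesenchymal transition (EMT) cells lower E-cadherin and EPCAM and raise N-cadherin, the filament protein vimentin and the matrix protein fibronectin, and the SNAI, ZEB and TWIST factors are known for repressing CDH1 through short E-box sequences. In the embryo, endoderm arises through such a change, and pancreatic epithelium is known to keep N-cadherin beside E-cadherin, so CDH2 alone does not mark mesenchyme there.

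The cells came from the wild-type human induced pluripotent stem cell line Ff-I01s01, a reprogrammed line that can form many tissues. All libraries were taken after a differentiation step named S3 that ran from day 6 to day 8, either without K-3 (Control, n = 3) or with 2 µM K-3 (n = 3); K-3 is a code name with no further description in the labels. The series asked how K-3 alters pancreatic progenitor differentiation. A single line was used and nothing states that replicates were separate differentiations, so p-values reflect only how these libraries varied, which may be technical variation.

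Control libraries held 35371195 to 38809532 fragments on genes and K-3 libraries 41876557 to 50245547, so every K-3 library was deeper. FPKM, the authors' unit, is fragments scaled to gene length and library size, so levels of different genes can be compared per length. For the 10 genes that length covers all annotated exons, so a gene whose main transcript is shorter has its level understated. Of the 9 pancreatic progenitor markers examined 7 had a mean of at least 1 FPKM, among them PDX1, FOXA2 and GATA4, while NKX6-1 was at 0 in all 6 libraries and PTF1A had a mean of 0.0338 FPKM in Control and 0 with K-3. The label thus matched the early markers and not those 2 later ones. None of 6 endothelial and none of 6 neural markers reached a mean of 1 FPKM, and their summed levels stayed at or below 0.188 and 0.337 FPKM. Of 5 pluripotency markers 3 did, led by LIN28A, while POU5F1 and NANOG had means of 0.223 and 0.00208 FPKM over all libraries. Of 6 definitive endoderm markers 5 reached a mean of 1 FPKM.

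Both cadherins, EPCAM and FN1 were strongly expressed in every library, ZEB1 and ZEB2 were almost absent, and VIM had the largest log2 fold change of the 6 tested genes in either direction. With K-3, 0 of the 6 tested genes were called higher and 0 lower in limma at an adjusted p under 0.05, where 1.14% of all 12989 tested genes were called higher, 0.901% lower and 2.04% in either direction. At an unadjusted p under 0.05 there was 1, VIM, on the higher side, as were 11.7% of all tested genes. Fitted with limma voom, the recovered fragments gave 1 call, VIM, again higher, beside 3.17% of all tested genes. The median log2 fold change of the 6 was 0.03, beside 0.01 over all tested genes. In such bulk libraries fewer cells of a type and less RNA per cell cannot be told apart.

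**Figure D1:**
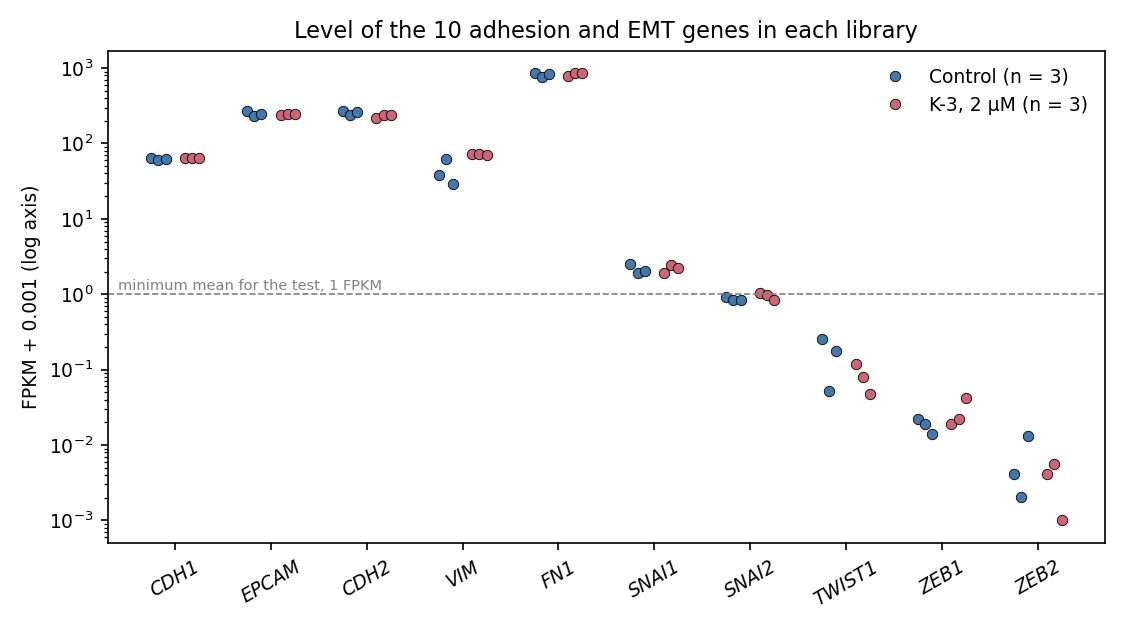
FPKM plus 0.001 on a log axis for each of the 10 genes, 1 point per library, with 3 Control and 3 K-3 libraries per gene. FN1 lies highest, CDH2 and EPCAM lie together above CDH1, ZEB1 and ZEB2 lie lowest, and the VIM points of Control are spread from 28.97 to 61.6 FPKM while those of K-3 lie together.

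CDH1, the adhesion gene whose loss defines the transition, was measured at 64.7, 60.1 and 61.4 FPKM in the Control libraries and at 63.7, 64.1 and 63.5 FPKM with K-3. The K-3 values fell inside the Control range. The means were 62.1 ± 2.39 and 63.8 ± 0.303 FPKM (SD, n = 3 per group), and the log2 fold change was 0.04 (95% interval -0.06 to 0.14; limma adjusted p = 0.638). Each library held 13650 to 19969 CDH1 fragments, so counting was not what limited this comparison.

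EPCAM, a surface adhesion molecule of simple epithelia and pluripotent cells, stood at 269.7, 232 and 246 FPKM in Control and at 241, 248 and 248 FPKM with K-3. The groups overlapped, with Control replicate 1 highest and Control replicate 2 lowest of all 6 libraries. The log2 fold change was -0.02 (95% interval -0.17 to 0.14; limma adjusted p = 0.888). It turned to 0.038 without Control replicate 1 and to 0.0060 with array quality weights, without passing.

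CDH2, which replaces CDH1 in the classical switch, had 273, 237 and 260.4 FPKM in Control and 221, 238 and 240.3 FPKM with K-3. K-3 replicate 1 was the lowest library, and Control replicate 2 overlapped the K-3 values. The means were 257 ± 18.4 and 233 ± 10.6 FPKM (SD, n = 3 per group), with a log2 fold change of -0.14 (95% interval -0.30 to 0.03; limma adjusted p = 0.293). The gene therefore did not pass, and its estimate lay below 0. On the lower side each time, its unadjusted p was under 0.05 by voom, after rescaling to summed non-mitochondrial FPKM, and without Control replicate 2. So were 3017 of 12989, 2855 of 12994 and 2484 of 12924 tested genes in those fits, in either direction. CDH2 passed after adjustment in none of the fits.

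Within a library CDH2 exceeded CDH1 everywhere. The ratio of CDH2 to CDH1 FPKM was 4.22, 3.94 and 4.24 in Control and 3.47, 3.71 and 3.78 with K-3. The 3 K-3 ratios all lay below the 3 Control ratios, with means of 3.65 ± 0.166 and 4.13 ± 0.166 (SD, n = 3 per group). The difference in the log2 ratio was -0.18, and the two-sided exact permutation p was 0.1, the smallest that this test can give with 3 against 3 libraries, so it could not have passed 0.05 whatever the values.

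**Figure D2:**
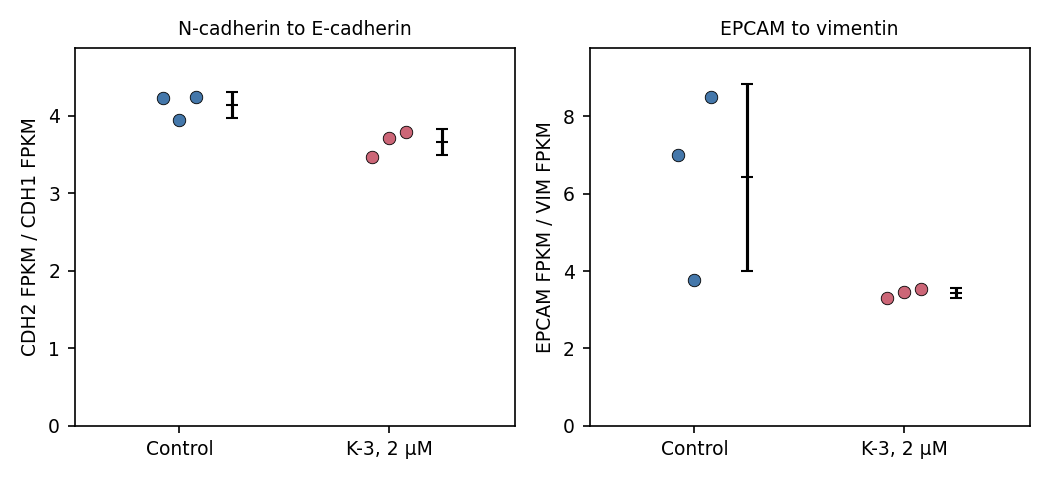
Ratios of FPKM within each library, CDH2 to CDH1 on the left and EPCAM to VIM on the right, with axes from 0, 1 point per library and the mean ± SD (n = 3) beside each group. The CDH2 to CDH1 ratio runs from 3.94 to 4.24 in Control and from 3.47 to 3.78 with K-3, and the EPCAM to VIM ratio from 3.77 to 8.50 in Control and from 3.30 to 3.54 with K-3.

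VIM encodes vimentin, the intermediate filament protein of mesenchymal and many migrating cells. Its level was 38.6, 61.6 and 28.97 FPKM in Control replicates 1, 2 and 3 and 73.1, 71.7 and 70.1 FPKM in the K-3 replicates. Every K-3 library lay above every Control library, although Control replicate 2 was much nearer to K-3 than to the other two. VIM was thus 1 of the 6 tested genes whose groups did not overlap with K-3 higher, where 15.4% of all tested genes did the same; no tested gene of the 10 lay lower without overlap, where 12.0% of all did, and 27.4% of all were without overlap in either direction.

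The VIM means were 43.0 ± 16.8 FPKM in Control and 71.6 ± 1.5 FPKM with K-3 (SD, n = 3 per group). The log2 fold change was 0.79 (SE 0.23, 95% interval 0.25 to 1.33), a value that 0.177% of all tested genes reached or exceeded. With limma's adjusted p of 0.118 it did not pass. It passed without Control replicate 2 (log2 fold change 1.08, adjusted p = 0.0128), by voom (0.80, adjusted p = 0.0398) and with array quality weights (0.89, adjusted p = 0.0326), and the percentages of all tested genes called higher in those fits were 2.1%, 3.17% and 8.45%. Over all alternatives the adjusted p ranged from 0.0128 to 0.334.

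VIM varied more among the Control than among the K-3 libraries, a description with no test. Its coefficient of variation was 38.9% over the Control libraries, the 15th highest of the 4492 genes averaging 10 FPKM or more, whose median was 4.91%. Over the K-3 libraries it was 2.09%, rank 3596 of the same genes, whose median was 4.08%. The ratio of EPCAM to VIM followed this spread, at 6.99, 3.77 and 8.50 in Control and 3.30, 3.45 and 3.54 with K-3.

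**Figure D3:**
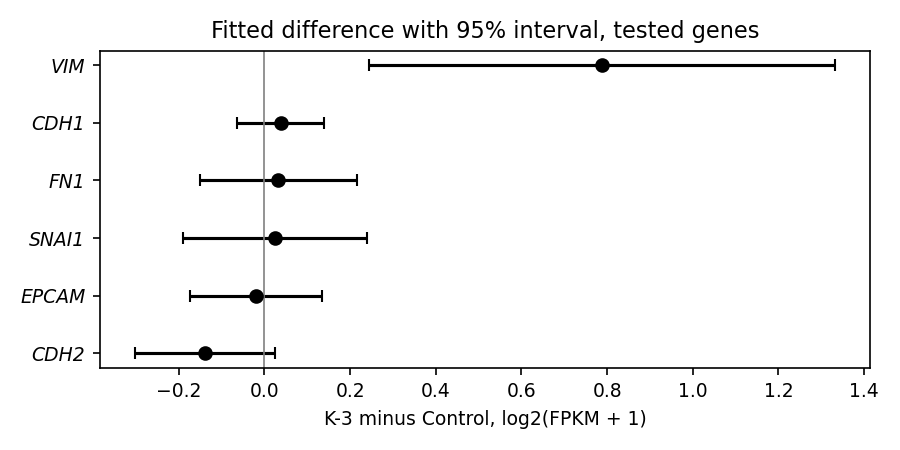
Fitted difference K-3 minus Control in log2(FPKM + 1) for the 6 tested genes, with bars for the 95% interval from limma. The interval of VIM runs from 0.25 to 1.33 and the other 5 intervals include 0.

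Exons of VIM-AS1 cover 12.4% of the VIM exon bases and those of AL133415.1 12.0%, both on the opposite strand, and whether counting used strand is not stated in the labels, so fragments there cannot be told apart. AL133415.1 was at 0 in all libraries. VIM-AS1 had 0.881, 1.53 and 1.26 FPKM in Control and 1.74, 1.34 and 1.69 FPKM with K-3, and its groups overlapped (log2 fold change 0.23, limma adjusted p = 0.316). Its mean of 1.41 FPKM over all libraries compares with 57.3 FPKM for VIM.

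Other genes of mesenchymal cells were looked at beside VIM. Of 12 such markers, 2 had a mean of at least 1 FPKM, PDGFRA and COL1A1, and TWIST2 and FOXF1 were at 0 in every library. Their summed level was 24.0 to 26.3 FPKM in Control and 25.5 to 28.1 FPKM with K-3, so the ranges overlapped. The summed level of the 9 pancreatic progenitor markers was 295 to 319 FPKM in Control and 348 to 360.4 FPKM with K-3. Its largest parts were GATA4 and FOXA2, with means of 163 and 105 FPKM over all libraries. FOXA2 was also among the definitive endoderm markers, and of the 7 tested progenitor markers 0 were called. The part of this sum in the VIM difference was not tested, nor was that of depth.

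Genes whose pattern over the 6 libraries lay nearest to VIM were searched among the 11181 other tested protein-coding genes, by the root mean square difference of log2(FPKM + 1) after centring each gene on its mean. The nearest was C20orf204 (0.0506), followed by CDX2, the homeobox gene of intestinal epithelium (0.0541), and GIF, which encodes the vitamin-binding intrinsic factor of the stomach (0.126). The centred values of VIM itself had a root mean square of 0.502. CDX2 had 6.81, 10.9 and 5.31 FPKM in Control and 14.4, 13.0 and 12.9 FPKM with K-3 (log2 fold change 0.78, limma adjusted p = 0.0929). Control replicate 2 was nearest to the K-3 libraries, a likeness to VIM for which the search selected. C20orf204 had log2 fold change 0.85 (adjusted p = 0.0900) and GIF 0.72 (adjusted p = 0.121), so none of the 3 passed.

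**Figure D4:**
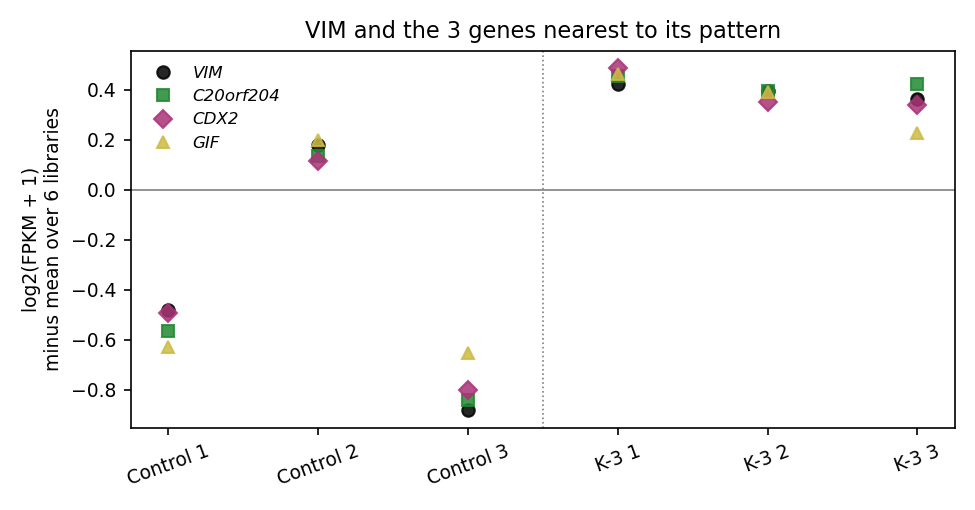
Level of VIM and of C20orf204, CDX2 and GIF, selected for their nearness to its pattern, in each library as log2(FPKM + 1) minus the gene's mean over the 6 libraries. In all 4 genes Control replicate 2 lies above 0 and Control replicates 1 and 3 lie below it, while the 3 K-3 libraries lie above 0.

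FN1 encodes fibronectin, the matrix glycoprotein that integrins bind, and was the highest of the 10 genes. Its level was 855, 756 and 839.9 FPKM in Control and 795, 857 and 852 FPKM with K-3, and it ranked 21 among the protein-coding genes detected. The groups overlapped. The log2 fold change was 0.03 (95% interval -0.15 to 0.22; limma adjusted p = 0.839), and without Control replicate 2 it turned to -0.023.

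The promoter windows of the 3 mesenchymal genes are shown because these genes carry the mesenchymal side of the comparison. RefSeq windows in GRCh38.p14 were of 300 bases, with 250 before the start and 50 after it. Such windows were kept for CDH2, VIM, FN1, ZEB1 and ZEB2, which are 5 of the 10 genes. CDH1, EPCAM, SNAI1 and TWIST1 have none in the table. SNAI2 was left out of this search, so whether it has a window was not tested. Capitals mark the GC box, GGGCGG or its reverse complement CCGCCC, with neighbouring copies allowed to overlap.
VIM, chr10:17227991-17228290, + strand: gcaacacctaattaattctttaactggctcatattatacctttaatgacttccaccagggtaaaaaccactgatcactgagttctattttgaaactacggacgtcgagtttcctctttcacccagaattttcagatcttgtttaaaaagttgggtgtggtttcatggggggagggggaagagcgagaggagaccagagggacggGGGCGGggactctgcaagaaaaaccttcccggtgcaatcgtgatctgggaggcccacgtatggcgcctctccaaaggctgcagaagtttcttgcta
CDH2, chr18:28177081-28177380, - strand: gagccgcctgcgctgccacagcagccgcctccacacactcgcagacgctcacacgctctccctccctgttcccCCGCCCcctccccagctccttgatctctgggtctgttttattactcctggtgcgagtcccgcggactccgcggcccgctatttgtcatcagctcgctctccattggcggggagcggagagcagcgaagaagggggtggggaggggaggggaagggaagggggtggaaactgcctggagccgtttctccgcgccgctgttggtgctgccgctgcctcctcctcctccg
FN1, chr2:215436019-215436318, - strand: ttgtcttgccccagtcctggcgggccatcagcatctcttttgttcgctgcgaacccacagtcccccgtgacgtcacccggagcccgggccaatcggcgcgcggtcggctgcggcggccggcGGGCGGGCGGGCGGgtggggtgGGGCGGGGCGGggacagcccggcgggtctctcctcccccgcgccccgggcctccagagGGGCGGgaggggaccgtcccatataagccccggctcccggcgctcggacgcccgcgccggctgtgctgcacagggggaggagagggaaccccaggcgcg

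The VIM window held 1 GC box, the CDH2 window 1 and the FN1 window 6, and 45.0% of all 35116 windows in the table held at least 1. The E-box CAGGTG, searched with its reverse complement CACCTG, was in none of these 3 windows, and 20.6% of all windows held it. CDH2 has a further window at another start, with neither motif. ZEB1 has 7 windows, and 2 of them held E-boxes, 4 in all, while the single ZEB2 window held none. These are matches of letters and say nothing of binding.

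Of the transcription factors, SNAI1, a zinc finger repressor of CDH1, was the only one tested. It had 2.501, 1.92 and 2.05 FPKM in Control and 1.94, 2.45 and 2.24 FPKM with K-3, from 124 to 179 fragments per library. The groups overlapped, and the log2 fold change was 0.03 (95% interval -0.19 to 0.24; limma adjusted p = 0.896), turning to -0.028 when Control replicate 2 was left out and to -0.029 when K-3 replicate 2 was.

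SNAI2, its close relative known from neural crest, had 0.927, 0.850 and 0.828 FPKM in Control and 1.03, 0.980 and 0.846 FPKM with K-3. Its groups overlapped, and its overall mean of 0.911 FPKM fell just short of the minimum. The basic helix-loop-helix factor TWIST1 had 0.258, 0.0507 and 0.178 FPKM in Control and 0.116, 0.0795 and 0.0467 FPKM with K-3. These levels rest on 4 to 20 fragments per library, and a difference was not detectable at this depth.

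ZEB1 and ZEB2, zinc finger and homeodomain repressors of CDH1, lay near the limit of detection. ZEB1 had 0.0212, 0.0179 and 0.0129 FPKM in Control and 0.0182, 0.0214 and 0.0411 FPKM with K-3, from 4 to 15 fragments per library. ZEB2 had 0.00314, 0.00103 and 0.0122 FPKM in Control and 0.00314, 0.00461 and 0 FPKM with K-3, from 0 to 11 fragments per library; a count of 0 in K-3 replicate 3 allows up to 0.00284 FPKM at 3 fragments, a limit that covers counting error only. No group difference can be read from so few fragments.

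Antisense genes add to that uncertainty. ZEB1 shares 4.23% of its exon bases with ZEB1-AS1, which at a mean of 1.197 FPKM was far more abundant than ZEB1 itself at 0.0221 FPKM. ZEB1-AS1 had 0.937, 1.12 and 1.002 FPKM in Control and 1.49, 1.29 and 1.34 FPKM with K-3, without overlap, and did not pass (log2 fold change 0.23, limma adjusted p = 0.147). ZEB2-AS1, which shares 5.18% of the ZEB2 exon bases, was at 0 in all 6 libraries.

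ZEB1 and ZEB2 transcripts are known targets of the miR-200 family, small RNAs of epithelial cells. Mature miRNAs were not measured, and the family is shown because its known targets were the 2 genes with the lowest levels. The 5 mature sequences (RefSeq, GRCh38.p14) follow, with the seed, bases 2 to 8, in capitals. The first 3 share the seed AAUACUG and the last 2 the seed AACACUG.
hsa-miR-200b-3p: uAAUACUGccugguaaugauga
hsa-miR-200c-3p: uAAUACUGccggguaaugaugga
hsa-miR-429: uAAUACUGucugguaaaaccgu
hsa-miR-200a-3p: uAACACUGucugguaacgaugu
hsa-miR-141-3p: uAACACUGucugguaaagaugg

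The 3' untranslated region of ZEB1 in GENCODE release 29, 1938 bases long, held 5 matches to the first seed (CAGTATT) and 3 to the second (CAGTGTT). That of ZEB2, 5370 bases long, held 5 and 4. Among protein-coding genes with a region within 20% of the ZEB1 length, 19.98% held at least 1 match to the first seed and 22.5% to the second; for the ZEB2 length these shares were 45.7% and 52.4%. As many matches as in ZEB1 or more were held by 0.0447% for the first seed and 0.268% for the second, and as many as in ZEB2 or more by 0.110% and 1.43%. The first match of each gene to the first seed is printed on the transcript strand in GRCh38, with the match in capitals.
ZEB1, chr10:31527622-31527643, + strand: ttttatcttatCAGTATTatca
ZEB2, chr2:144389049-144389070, - strand: ctaccatacatCAGTATTttta

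MIR200CHG, the host transcript of miR-200c and miR-141, had 1.05, 0.588 and 0.874 FPKM in Control and 0.506, 0.726 and 0.407 FPKM with K-3. These values come from 6 to 14 fragments per library over a feature of 350 bases, the groups overlapped, and the gene was below the minimum mean.

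Ordered by mean FPKM, the genes ran FN1, EPCAM, CDH2, CDH1, VIM, SNAI1, SNAI2, TWIST1, ZEB1 and ZEB2. FPKM here uses the length of all annotated exons, so the order of transcript numbers may differ. EPCAM and CDH2 were not separated, with EPCAM above CDH2 in 3 of 6 libraries and a ratio of means of 1.01. CDH1 and VIM were not separated either, since CDH1 exceeded VIM in 2 of 6 libraries: VIM was the lower in Control replicates 1 and 3 and the higher in Control replicate 2 and the K-3 libraries. Every other neighbouring pair kept its order in 6 of 6 libraries, and from FN1 to EPCAM the mean fell 3.34-fold and from VIM to SNAI1 26.3-fold.

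The wider adhesion and EMT machinery was examined in 10 gene lists with 137 genes, of which 87 were tested. In limma 0 were called higher and 0 lower, where unadjusted p-values under 0.05 numbered 6 on the higher and 10 on the lower side, against 11.7% and 10.4% of all tested genes. By voom 1 was called higher (FBXL14) and 6 lower (ITGB8, KLF5, KLF8, PLEC, SPARC and VCAN), against 3.17% and 3.08% of all tested genes. Groups did not overlap in 11 genes higher with K-3 and 12 lower, against 15.4% and 12.0% of all tested genes. The median log2 fold change over the 87 was -0.01, beside 0.01 over all tested genes.

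Among 10 tested adherens junction partners none passed, and the median log2 fold change was 0.01. CTNND1, which encodes the p120 catenin that holds cadherins at the surface, had 101, 109 and 94.3 FPKM in Control and 124, 116 and 112 FPKM with K-3, without overlap (log2 fold change 0.21, limma adjusted p = 0.129). CTNNB1 (beta-catenin, 0.06) and VCL (vinculin, -0.10) had overlapping groups. Of 17 other cadherins 3 were tested: CDH6, a cadherin of kidney and other embryonic epithelia, averaged 38.7 ± 2.53 FPKM without and 33.5 ± 1.84 FPKM with K-3 (SD, n = 3 per group; log2 fold change -0.20, limma adjusted p = 0.127), and CDH3 (0.08) and CDH24 (-0.05) had smaller differences. The other 14 lay below the minimum, among them CDH5 of endothelium and CDH11 of mesenchyme, both named after their values were seen. CDH11 had 0.116, 0.183 and 0.0873 FPKM in Control and 0.197, 0.223 and 0.218 FPKM with K-3, without overlap. It was not tested, and the share of genes below the minimum without overlap was not computed. Of the mesenchymal markers below the minimum, PDGFRB lay higher and COL3A1 lower with K-3, both without overlap.

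Of 39 epithelial identity genes 35 were tested, none passed and the median log2 fold change was -0.0030. The 35 ran from -0.28 to 0.20. Groups did not overlap in 5 genes higher with K-3 and 4 lower, against 15.4% and 12.0% of all tested genes. Unadjusted p-values under 0.05 in limma numbered 2 higher and 4 lower, against 11.7% and 10.4%. CD24, ESRP1, RAB25, OCLN and the desmosome gene DSP, named after their values were seen, had log2 fold changes of -0.0029, 0.02, 0.07, -0.02 and 0.09. The smallest p belonged to KLF5, a zinc finger factor of epithelial progenitors, at 54.6, 49.6 and 53.5 FPKM in Control and 40.8, 45.4 and 42.7 FPKM with K-3, without overlap (log2 fold change -0.28, limma adjusted p = 0.0549). TJP1, the tight junction scaffold, had -0.12 (adjusted p = 0.123) and PKP2, a desmosomal plakophilin, -0.15 (adjusted p = 0.148).

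Of 18 mesenchymal effector genes 5 were tested, none passed and the median log2 fold change was -0.18, with 4 of the 5 below 0 and PDGFRA at 0.09. The matrix proteoglycan gene VCAN had 63.2, 49.8 and 66.8 FPKM in Control and 41.0, 43.2 and 44.5 FPKM with K-3, without overlap, and Control replicate 2 was again the Control library nearest to K-3 (log2 fold change -0.46, SE 0.10, limma adjusted p = 0.0687). SPARC, a collagen-binding matrix protein, had 105, 83.2 and 92.6 FPKM in Control and 67.0, 75.8 and 77.9 FPKM with K-3, also without overlap (log2 fold change -0.34, adjusted p = 0.104). MMP14, a membrane-bound matrix protease, had -0.18 (adjusted p = 0.304), and of the 13 untested genes POSTN and FAP were at 0 in all libraries; PDGFRA, POSTN and FAP were named after their values were seen.

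Of 13 other EMT transcription factors 6 were tested and none passed, with a median log2 fold change of -0.04. KLF8, a repressor of the Kruppel family, averaged 4.93 ± 0.511 FPKM without and 3.96 ± 0.0611 FPKM with K-3 (SD, n = 3 per group; log2 fold change -0.26, limma adjusted p = 0.0902), FOXC1 0.12 and TCF3, an E-box binding partner, 0.09. TWIST2 was at 0 throughout. Among 11 genes for corepressors and turnover of the SNAI and ZEB factors, all tested and none called (median log2 fold change -0.0026), FBXL14 came nearest. It encodes a ubiquitin ligase subunit known to target SNAI1, and had 8.14, 8.07 and 7.49 FPKM in Control and 9.30, 9.81 and 9.39 FPKM with K-3, without overlap (log2 fold change 0.24, SE 0.05, limma adjusted p = 0.0501). The histone deacetylase HDAC1 had 0.10 and the corepressor RCOR1 -0.10.

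Fibronectin receptors gave 6 tested genes of 10 and no call, with a median log2 fold change of -0.03; the integrin chain genes ITGB8, ITGA5 and ITGB1 had -0.22, 0.08 and -0.07. Of 6 vimentin filament partners 2 were tested. PLEC, the linker plectin, had 19.0, 17.9 and 20.1 FPKM in Control and 13.9, 15.2 and 17.1 FPKM with K-3, lower without overlap where VIM was higher (log2 fold change -0.29, limma adjusted p = 0.0946), and NES, the filament protein nestin, had 0.04. The 7 cadherin and EPCAM proteases were all tested without a call (median log2 fold change -0.03), with ADAM10 at 0.06, APH1A at 0.06 and PSEN2 at -0.07.

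**Figure D5:**
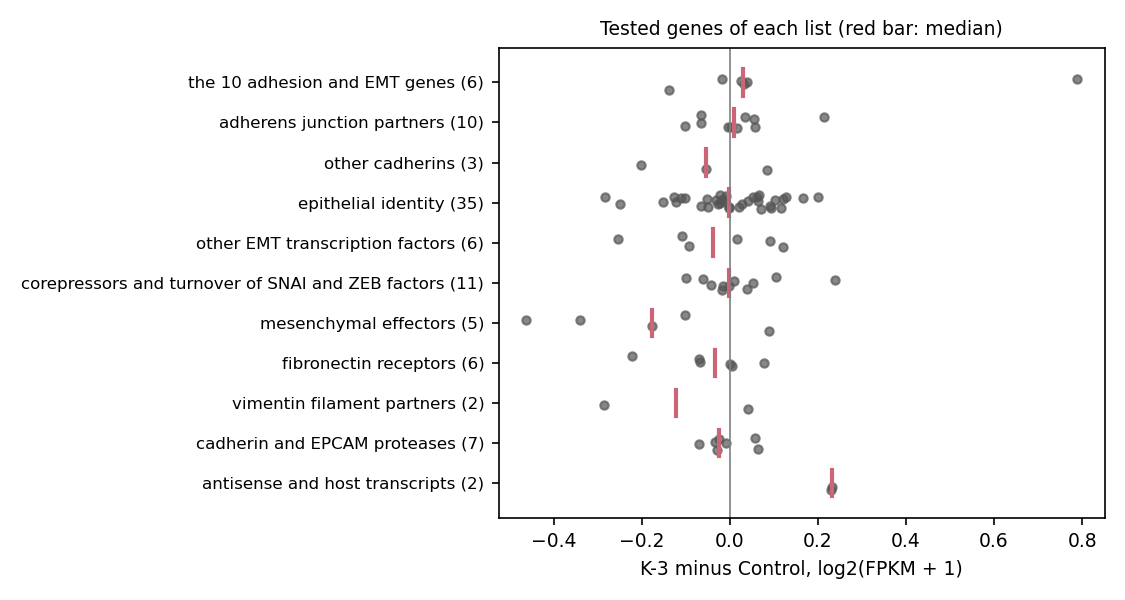
Log2 fold change, K-3 minus Control on the log2(FPKM + 1) scale, of every tested gene in the 10 lists and of the 6 tested adhesion and EMT genes, 1 point per gene, with the number tested in brackets and a red bar at the median. VIM stands alone at 0.79, and the tested mesenchymal effectors have a median of -0.18.

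The genome positions of the 10 genes in GRCh38 are those of the deposited table; all are protein-coding, and each value is the total over a gene's annotated exons. CDH1 (ENSG00000039068) lies at chr16:68737225-68835548 on the + strand, EPCAM (ENSG00000119888) at chr2:47345158-47387601 on the + strand and CDH2 (ENSG00000170558) at chr18:27950966-28177446 on the - strand. VIM (ENSG00000026025) lies at chr10:17228259-17237593 on the + strand and FN1 (ENSG00000115414) at chr2:215360440-215436172 on the - strand. SNAI1 (ENSG00000124216) lies at chr20:49982999-49988886 on the + strand, SNAI2 (ENSG00000019549) at chr8:48917604-48921740 on the - strand and TWIST1 (ENSG00000122691) at chr7:19020991-19117672 on the - strand. ZEB1 (ENSG00000148516) lies at chr10:31318495-31529814 on the + strand and ZEB2 (ENSG00000169554) at chr2:144364364-144524583 on the - strand. Beyond VIM, ZEB1 and ZEB2, opposite-strand genes share 5.62% of the exon bases of CDH1, 2.75% of CDH2 and 6.94% of TWIST1, and EPCAM, FN1, SNAI1 and SNAI2 share none.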

How the data were processed

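Per the labels, polyadenylated RNA was sequenced as paired-end reads; the text describes a directional and a non-directional library without saying which was used. The authors deposited FPKM per gene. The submitters' processing notes list HISAT2 2.0.5, featureCounts 1.5.0-p3, DESeq2 1.20.0 and GRCh38, with no order or settings. FPKM times gene length was a whole multiple (within 1e-06) of a step for 100% of values above 0 in each library, so fragments were recovered; the implied library sizes differed from median-of-ratios size factors by at most 0.459%.

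The 12989 genes averaging 1 FPKM or more were tested with limma 3.58.1 (eBayes with trend, R 4.3.3) on log2(FPKM + 1), two-sided, K-3 against Control, with Benjamini-Hochberg adjustment over all of them and a threshold of 0.05; this scale understates changes of low genes. The code was tested on simulated data. Groups came from the sample titles. Alternatives changed pseudocount, filter, prior, adjustment set, scaling, test, weights, a replicate block and the libraries used.

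The 10 genes and the lists were chosen with earlier results of these data known. The naming rule took all 10, each list's genes past the test or else its 3 smallest p-values, the 4 antisense and host transcripts, and the 3 nearest patterns of members with an absolute log2 fold change of at least 0.3. Exact permutation tests used scipy 1.17.1.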

Additional observations from a re-analysis of the deposited data

How the results depend on the processing

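The count of the 10 genes called higher was 0 and became 1, VIM, by voom on recovered fragments, with array quality weights and without Control replicate 2, so it ranged from 0 to 1 when each library was left out in turn; the count called lower was 0 in every fit. The number of all tested genes called was 265. It was 2074 with array quality weights, 407 with a minimum mean of 5 FPKM, 0 with no minimum, 141 without a trend, 694 among protein-coding genes only, 812 by voom and 0 to 706 with a library left out (706 without Control replicate 1, 498 without Control replicate 2, 11 without Control replicate 3, and 5, 0 and 3 without K-3 replicates 1, 2 and 3). The fold changes near 0 turned sign: EPCAM was 0.0060 with array quality weights and -0.069 to 0.038 with a library left out, FN1 -0.023 to 0.067 and SNAI1 -0.029 to 0.10. CDH1 (0.015 to 0.068) and CDH2 (-0.20 to -0.093) kept their sign in these fits, VIM ranged from 0.55 to 1.08, and the log2 ratio of CDH2 to CDH1 differed by -0.21 to -0.14. The causes were not tested, and some fits hold fewer libraries or genes. At 4 to 20 fragments per library for TWIST1, 4 to 15 for ZEB1 and 0 to 11 for ZEB2, depth allows no comparison. SNAI1 has no value with a minimum mean of 5 FPKM, and SNAI2, TWIST1, ZEB1 and ZEB2 have a fitted value only with no minimum.

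Libraries of the same replicate number did not vary together: the correlation of deviations from the group means was -0.36, -0.03 and -0.11 for numbers 1, 2 and 3. Between unlike numbers it ran from -0.27 to 0.33. Deviations within a group of 3 sum to 0, so these values depend on each other and cannot decide whether libraries were handled in pairs. With the replicate as a block 0 genes were called (2134 at an unadjusted p under 0.05), and VIM had an adjusted p of 0.183. Rescaling each library to its summed FPKM without mitochondrial-encoded genes gave 117 higher and 152 lower calls in place of 148 and 117. It moved the median of all genes from 0.01 to -0.01. This rescaling also replaced the deposited scaling, so the part of the mitochondrial genes was not tested.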
